A study of Rattus norvegicus with 63 samples.

Results

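HNF4A, hepatocyte nuclear factor 4 alpha, is a nuclear receptor that binds DNA and keeps hepatocytes in their differentiated state. Among its known target genes in the liver are many cytochrome P450 (CYP) genes, whose products oxidise drugs and steroids, and genes for secreted plasma proteins. It works beside the xenobiotic receptors PXR and CAR, which raise CYP2B and CYP3A enzymes when a foreign compound activates them. The HNF4A protein signal was followed here across rat livers exposed to 15 compounds, to ask where it moved against the controls and whether it varied with the CYP signals from animal to animal. The antibody signal was found by its name, and 1 of the 158 measured analytes carried the symbol HNF4A.

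The signals came from reverse-phase protein arrays, on which liver lysates are printed as spots and each array is probed with a single antibody. The unit is the relative fluorescence intensity (RFI), a linear brightness corrected for background, which has no absolute scale, so levels of different antibodies were not compared. Male Wistar Hanover rats, 8 to 10 weeks old, were dosed by gavage, and 63 livers were measured, 3 in each of 21 groups. The 45 treated animals were selected by the study from larger dose groups for histopathological change, and the dosing time of each compound was chosen for its mRNA response, so they do not represent all dosed animals. A lysate holds the whole liver, and fewer hepatocytes and less HNF4A per hepatocyte cannot be told apart in it.

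The 12 methylcellulose (MC) controls, all labelled 14 days, formed 4 sets of 3. Set 1 was the label's reference for acetamide (AA, 3000 mg/kg per day for 14 days), dehydroepiandrosterone (DHEA, 600 mg/kg for 14 days), methylcarbamate (Mcarb, 400 mg/kg for 14 days), methapyrilene (MPy, 60 mg/kg for 7 days), thioacetamide (TAA, 19.2 mg/kg for 7 days) and Wy-14643 (Wy, 60 mg/kg for 3 days). Set 2 belonged to cefuroxime (CFX, 250 mg/kg for 14 days) and nifedipine (Nif, 3 mg/kg for 14 days). Set 5 served diethylstilbestrol (DES, 10 mg/kg for 3 days), ethionine (ETH, 200 mg/kg for 14 days) and piperonylbutoxide (PBO, 1200 mg/kg for 3 days), and set 6 served phenobarbital (PB, 14 days, no dose in the labels). The 6 corn oil (CO) controls formed set 3, dosed for 7 days, for C.I. Direct Black (CIDB, 146 mg/kg for 7 days) and dimethylnitrosamine (DMN, 4 mg/kg for 7 days), and set 4, dosed for 14 days, for cyproterone acetate (CPA, 100 mg/kg for 14 days). By these labels MPy, TAA, Wy, DES and PBO were set against controls of another dosing time, although the study's methods describe time-matched controls. If the labels hold, time and compound cannot be told apart in them.

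HNF4A was measured above 0 in all 63 animals. Its RFI ran from 1.07 to 2.93 with a median of 1.90. The span between the dimmest and the brightest liver was 2.73-fold. Between animals of a group the SD was 0.205 on the log2 scale, against a median of 0.265 over all analytes, so HNF4A was among the more even signals (26th smallest SD). Of the other defining hepatocyte proteins listed for this check, CYP2E1 and glutamine synthetase (GLUL) were on the arrays, and no marker listed for other liver cells was among the 158 analytes, so a change in cell composition could not be measured.

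The whole lysate signal also differed between animals. The median RFI over all analytes ran from 0.425 to 0.882 per animal, and the highest value belonged to an MC set 6 control, which also had the highest HNF4A of all livers. HNF4A followed this median closely: over deviations of the 63 animals from their group means, Pearson's r was 0.685 and Spearman's rho 0.650 (permutation p = 1e-05 for both, the smallest that 100000 resamples allow). Without the 2 animals farthest from the median HNF4A deviation, both given PBO, r was 0.627. Each comparison is therefore also given with every animal centred on its own median log2 RFI, which removes a shift shared by all antibodies.

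**Figure D1:**
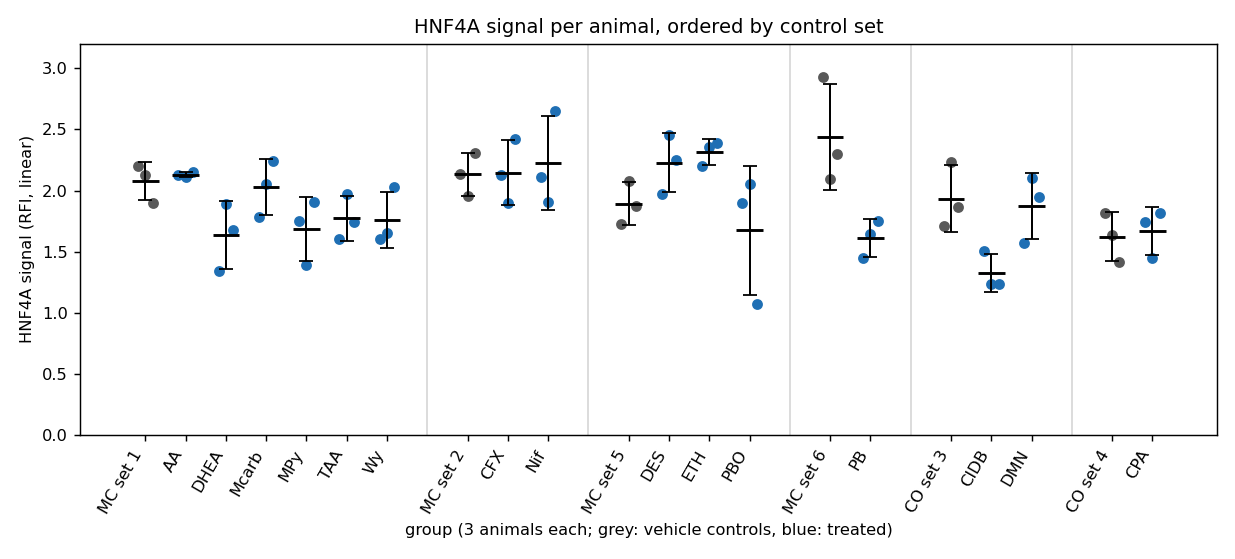
HNF4A signal (RFI, linear axis) of each animal in the 21 groups, ordered by control set, with the vehicle controls in grey and treated animals in blue; horizontal lines are group means and bars the SD over 3 animals. The 3 CIDB livers lie between 1.24 and 1.51, and the spread is widest in PBO, where 1 liver reads 1.07.

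The controls themselves gave the background. MC livers averaged 2.14 ± 0.304 RFI (SD, n = 12), with a lowest value of 1.73, a median of 2.11 and a highest of 2.93. CO livers averaged 1.78 ± 0.274 RFI (SD, n = 6) and ran from 1.41 to 2.23, with a median of 1.76. The CO animals thus read lower by log2 -0.27 (95% interval -0.48 to -0.05, limma adjusted p = 0.0743), and the ranges overlapped. The median analyte was lower by nearly as much (log2 -0.22), and after centring the HNF4A difference was 0.01 (adjusted p = 0.957). Among the 7 pairs of control sets with the same vehicle none was called for HNF4A by limma. The widest gap lay between MC set 5 and set 6 (log2 -0.36, unadjusted p = 0.0438, adjusted p = 0.629), and it was -0.05 after centring.

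Ordered by mean log2 RFI, MC set 6 stood first, followed by ETH, DES, Nif, CFX, AA, MC set 2, MC set 1, Mcarb, CO set 3, MC set 5, DMN, TAA, Wy, MPy, CPA, DHEA, CO set 4, PBO, PB and CIDB. No pair of neighbours in this order was called by limma. The order was made from the same values, so neighbours lie close by construction. These tests therefore cannot show whether groups differ. The largest step was the last, between PB and CIDB (unadjusted p = 0.108, limma adjusted p = 0.448). CIDB was also lowest after centring, with PBO next, while MC set 6 moved to 9th and ETH to 1st.

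HNF4A differed from the vehicle controls in an F test over the 15 compounds. That test does not ask whether the compounds differ from one another. The moderated F test of limma, with each compound set against all controls of its vehicle, gave F = 2.97 (adjusted p = 0.0124) and called 20.3% of all analytes, HNF4A ranking 25th. With centred values F was 4.62 (adjusted p = 0.000147), where 42 of the 158 analytes were called and HNF4A ranked 24th. Against the labelled control sets HNF4A was called lower in 2 of the 15 compounds, CIDB and PB, and higher in none. Pooled over the 15 comparisons, 1.73% of all tests were called lower. The call rate over all analytes was 7.59% for CIDB and 5.06% for PB in either direction, and 3.16% in each for lower signals. The estimates were negative in 9 compounds and positive in 6, from log2 -0.59 to 0.30. Each had an SE of 0.17 and a 95% interval of ± 0.35 on the log2 scale, and 12 of the 15 intervals spanned 0.

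CIDB, an azo dye classed by the study as a genotoxic carcinogen, had the lowest HNF4A of all groups. Its 3 livers read 1.51, 1.24 and 1.24 RFI. The CO set 3 controls read 1.71, 2.23 and 1.86. Every CIDB liver lay below every liver of its set, which 6.96% of all analytes also did, and 6 animals of other groups were at or below the highest CIDB value. The mean was 1.33 ± 0.157 against 1.93 ± 0.271 RFI (SD, n = 3 each), a fold of 0.687 (log2 -0.54, 95% interval -0.89 to -0.19, adjusted p = 0.0382 by limma).

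The fall of HNF4A in CIDB was not shared by the analytes as a whole. The median of all analytes was slightly higher in CIDB than in set 3 (log2 0.08), and 36.1% of analytes were lower. Centred on the animal medians, HNF4A was lower by log2 -0.59 (95% interval -0.84 to -0.33, adjusted p = 0.000452), where 4.43% of analytes were called lower. Without each of the 6 animals in turn the centred value against the set stayed between -0.65 and -0.51 and passed the test each time (adjusted p 0.000599 to 0.0126). The uncentred call was lost without CIDB animal 2 (log2 -0.49, adjusted p = 0.177) or 3 (-0.49, adjusted p = 0.191) and without CO set 3 animal 5 (-0.43, adjusted p = 0.294) or 6 (-0.56, adjusted p = 0.0820). It was also lost in a fit of the 6 animals alone (-0.54, adjusted p = 0.115).

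Against all 6 CO controls the CIDB estimate was log2 -0.41 (95% interval -0.72 to -0.11), which did not pass the test uncentred (adjusted p = 0.0921). The CO set 4 controls, at 1.81, 1.64 and 1.41 RFI, read lower than set 3, and 2 of the 3 CIDB livers lay below all 6 controls. With centred values the same comparison gave log2 -0.50 (adjusted p = 0.000392, with 3.8% of analytes called lower), and -0.56 to -0.45 without each of the 9 animals in turn, called each time. DMN, the other genotoxic carcinogen, shares its controls with CIDB. Its livers read 1.57, 2.10 and 1.95 RFI, within or just below the range of set 3, and the estimate was log2 -0.05 (95% interval -0.39 to 0.30, adjusted p = 0.995). The difference between CIDB and DMN was not tested.

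PB, an activator of CAR, gave the most negative estimate, in livers of 1.44, 1.64 and 1.75 RFI. Its MC set 6 controls read 2.93, 2.09 and 2.30. All 3 treated livers lay below all 3 controls, as did 17.7% of all analytes, and the fold was 0.665 (log2 -0.59, 95% interval -0.93 to -0.24, limma adjusted p = 0.0350). The analytes as a whole were lower too: 89.2% had a negative estimate, with a median of log2 -0.29.

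The PB call was not kept with centring, with all MC controls as reference or in the authors' log2 ratios. Centred, the HNF4A difference was log2 -0.18 (95% interval -0.43 to 0.08, adjusted p = 0.419). Against all 12 MC controls it was -0.40 (adjusted p = 0.0885), and in the authors' log2 ratios -0.08 (adjusted p = 0.971). Without the bright MC set 6 control 1 the estimate was -0.45 and was not called (adjusted p = 0.408). The call was kept without control 2 (-0.69, adjusted p = 0.0233) or control 3 (-0.62, adjusted p = 0.0263). Without a PB animal the estimate stayed about as large and the call was lost, at -0.51 (adjusted p = 0.146) without animal 1, -0.60 (adjusted p = 0.0883) without animal 2 and -0.65 (adjusted p = 0.0522) without animal 3.

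DHEA, a steroid precursor, was the 1 compound called against all controls of its vehicle, where 3.04% of all tests pooled over the 15 compounds were called lower. Its livers read 1.34, 1.89 and 1.68 RFI against 2.20, 2.13 and 1.90 in MC set 1, with no overlap between the groups, as was so for 24.1% of all analytes. The estimate was log2 -0.36 against the set (unadjusted p = 0.0443, adjusted p = 0.259 by limma) and -0.39 against all 12 MC controls (95% interval -0.67 to -0.11, adjusted p = 0.0472), where 16.5% of all analytes were called and 14.6% were called lower. Against the vehicle controls DHEA was not the strongest by unadjusted limma p, at 0.00777, beside 0.00613 for PB (log2 -0.40) and 0.00659 for PBO (-0.39). CIDB had the largest estimate there (-0.41, unadjusted p = 0.00897). The adjusted p also depends on how many analytes of a comparison changed. As with PB, most analytes were lower in DHEA than in the labelled set (85.4%). Centred values gave -0.14 and -0.16 (adjusted p = 0.689 and 0.342). The call against the vehicle controls was lost on leaving out DHEA animals 1 (-0.25, adjusted p = 0.568) or 3 (0.0741), or any of 8 control animals: set 6 animals 1 to 3, set 1 animals 4 and 5, set 5 animal 8, and set 2 animals 10 and 12 (adjusted p 0.0513 to 0.0733).

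**Figure D2:**
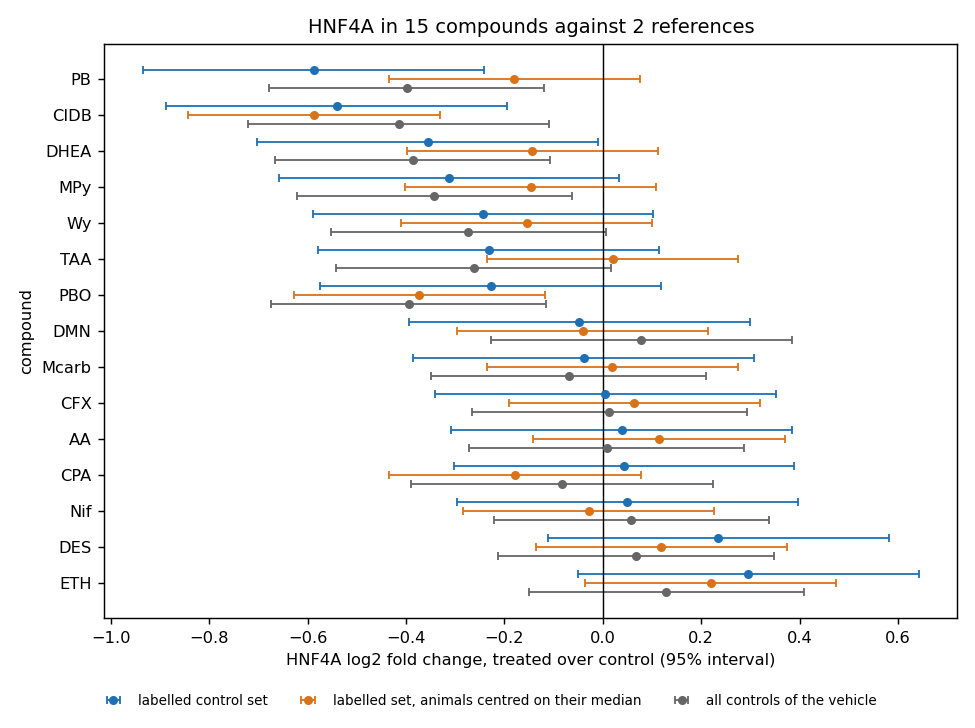
HNF4A log2 fold change of each compound (treated over control) with 95% intervals, against the labelled control set (blue), against the same set with animals centred on their median (orange) and against all controls of the vehicle (grey). CIDB stays well below 0 in all 3, PB moves from -0.59 to -0.18 on centring, and PBO moves from -0.23 to -0.37.

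PBO, an insecticide synergist that inhibits CYP enzymes and raises their amount, held the most uneven group. The livers read 1.90, 2.05 and 1.07 RFI, and the third value was the lowest of all 63 animals. The MC set 5 controls read 1.73, 2.08 and 1.87, so 2 PBO livers lay within their range and 1 far below it. The estimate was log2 -0.23 against the set (95% interval -0.57 to 0.12, adjusted p = 0.521 by limma) and -0.39 against all MC controls (adjusted p = 0.0520).

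Relative to their own medians over all analytes, all 3 PBO livers were low in HNF4A. Their centred log2 values were 1.54, 1.51 and 1.11, against 1.64, 1.83 and 1.81 in set 5. The groups no longer overlapped, as was so for 10.8% of analytes in this direction. The medians removed were log2 -0.62, -0.47 and -1.01 in PBO, against -0.85, -0.78 and -0.91 in set 5. The median analyte was higher in PBO than in set 5 (log2 0.15), and 27.8% of analytes were lower. The centred difference was log2 -0.37 against the set (95% interval -0.63 to -0.12, adjusted p = 0.0633) and -0.41 against all MC controls (adjusted p = 0.00149, with 4.43% of analytes called lower). These values depended on animal 3. Without it the centred value was -0.24 against the set (adjusted p = 0.377) and -0.28 against all MC controls (adjusted p = 0.101), so the latter was no longer called, and the uncentred values were 0.07 and -0.10 (adjusted p = 0.802 and 0.628). Without animal 1 or animal 2 the uncentred value against all MC controls was called instead, at -0.51 (adjusted p = 0.0435) and -0.57 (adjusted p = 0.0182). That animal read 0.00448 RFI for CYP2E1_1, against 0.582 and 0.737 in the other PBO livers, while for CYP2E1_2 it read 8.49 RFI, between their 6.12 and 10.3. The median of animal 3 over all analytes, 0.489 RFI, was the lowest of the group.

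None of the other compounds were called against either reference. MPy livers read 1.75, 1.39 and 1.90 RFI (log2 -0.31 against set 1, unadjusted p = 0.0758, adjusted p = 0.666 by limma). Wy, a PPAR alpha agonist, and TAA gave log2 -0.24 and -0.23, and centred -0.15 and 0.02. At the upper end, the ETH livers of 2.20, 2.36 and 2.39 RFI all lay above the 3 controls of set 5, as did 8.86% of analytes, and the estimate was log2 0.30 (95% interval -0.05 to 0.64, adjusted p = 0.662), centred 0.22. DES livers read 1.98, 2.46 and 2.25 RFI (log2 0.23, adjusted p = 0.660).

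The remaining 5 estimates lay close to 0. The AA livers, at 2.13, 2.11 and 2.15 RFI, were the most even group, with a mean at log2 0.04 from set 1. Mcarb read 1.78, 2.06 and 2.24 RFI (log2 -0.04). The non-carcinogens CFX, at 2.12, 1.90 and 2.42 RFI, and Nif, at 2.11, 1.91 and 2.65 RFI, gave 0.01 and 0.05. CPA, at 1.74, 1.45 and 1.82 RFI, gave 0.04 uncentred, while the median analyte was higher than in its set by log2 0.23, and -0.18 centred (adjusted p = 0.624). The intervals of ± 0.35 leave changes of up to about that size undetected in each.

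The study contrasts non-genotoxic carcinogens (NGC: AA, DES, DHEA, ETH, Mcarb, MPy, PB and PBO), genotoxic carcinogens (CIDB and DMN) and non-carcinogens (CFX and Nif). CPA, TAA and Wy were left out of the class means. The study held these carcinogens as undefined and then classified them as NGC from their profiles. With compounds as units, mean log2 ratios were -0.12 ± 0.31 for the 8 NGC, -0.29 ± 0.35 for the 2 genotoxic carcinogens and 0.03 ± 0.03 for the 2 non-carcinogens (SD). NGC minus non-carcinogens was -0.15 (two-sided exact permutation p = 0.533), and all 10 carcinogens minus non-carcinogens was -0.18 (exact permutation p = 0.424). NGC minus genotoxic carcinogens was 0.18 (exact permutation p = 0.489). The smallest p these designs allow is 0.0444, or 0.0303 for all carcinogens. Compounds of a class also share controls, both non-carcinogens MC set 2, both genotoxic carcinogens CO set 3, and among the NGC 4 share set 1 and 3 share set 5. They are therefore not independent units, and class and control set cannot be told apart.

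The CYP antibodies gave 15 analytes, named by human symbols and numbered where several share one. CYP3A4_2, named for a CYP3A drug-metabolising enzyme, was higher in 5 compounds, and the uncentred HNF4A estimates in these ran in both directions. In CPA CYP3A4_2 rose by log2 5.36 and in PBO by 5.23, where HNF4A estimates were 0.04 and -0.23. In PB it rose by 2.26 with HNF4A at -0.59, in ETH by 1.34 with HNF4A at 0.30, and in DHEA by 1.08 with HNF4A at -0.36. Of these HNF4A estimates only that of PB was called. After centring, HNF4A was -0.18 in CPA, -0.37 in PBO, -0.18 in PB, -0.14 in DHEA and 0.22 in ETH, none of them called. In CIDB CYP3A4_2 was lower by log2 -1.53 and in TAA by -1.22, with uncentred HNF4A at -0.54 and -0.23. All 7 changes of CYP3A4_2 passed the limma test (adjusted p 0.0353 in TAA and lower in the rest). Centred, the other 6 passed again and TAA did not (log2 -0.97, adjusted p = 0.108). Over all analytes the share called higher was 5.06% in CPA and PBO, 1.9% in PB, 0.633% in ETH and 1.27% in DHEA. The share called lower was 3.16% in CIDB and in TAA. CYP3A4_1, which shares the symbol, was not called against the labelled set in any compound. In CPA it read 5.46, 5.59 and 7.43 RFI against 4.92, 5.64 and 7.44 in CO set 4. In PBO it read 6.94, 9.41 and 3.60 RFI against 7.48, 6.07 and 7.10 in MC set 5.

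Of the 2 compounds in which HNF4A was called, CIDB had 1 of 15 CYP signals lower (CYP3A4_2) and none higher, and PB had 2 higher and none lower (CYP3A4_2 and, by log2 2.92, CYP2B6_1, the signal of a CAR target). Over all analytes 3.16% were called lower and 4.43% higher in CIDB, and 3.16% lower and 1.9% higher in PB. The other CYP2B6 signals were not called in PB. CYP2B6_2 read 0.588, 0.472 and 0.565 RFI there against 0.731, 0.517 and 0.436 in MC set 6. CYP2B6_3 read 220, 116 and 192 RFI against 152, 93.2 and 70.3. With centred values 3 CYP signals were called higher in PB. The CIDB livers read 0.490, 0.347 and 0.281 RFI for CYP3A4_2, all below the set 3 controls at 0.553, 1.95 and 1.08. The PBO liver with the lowest HNF4A of all read 35.6 RFI for CYP3A4_2, close to the other PBO livers at 38.8 and 40.0. It read 8.01 RFI for CYP1A2_1, beside 4.63 and 7.64. The median CYP difference was log2 0.01 in CIDB and -0.26 in PB, beside medians over all analytes of 0.08 and -0.29.

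**Figure D3:**
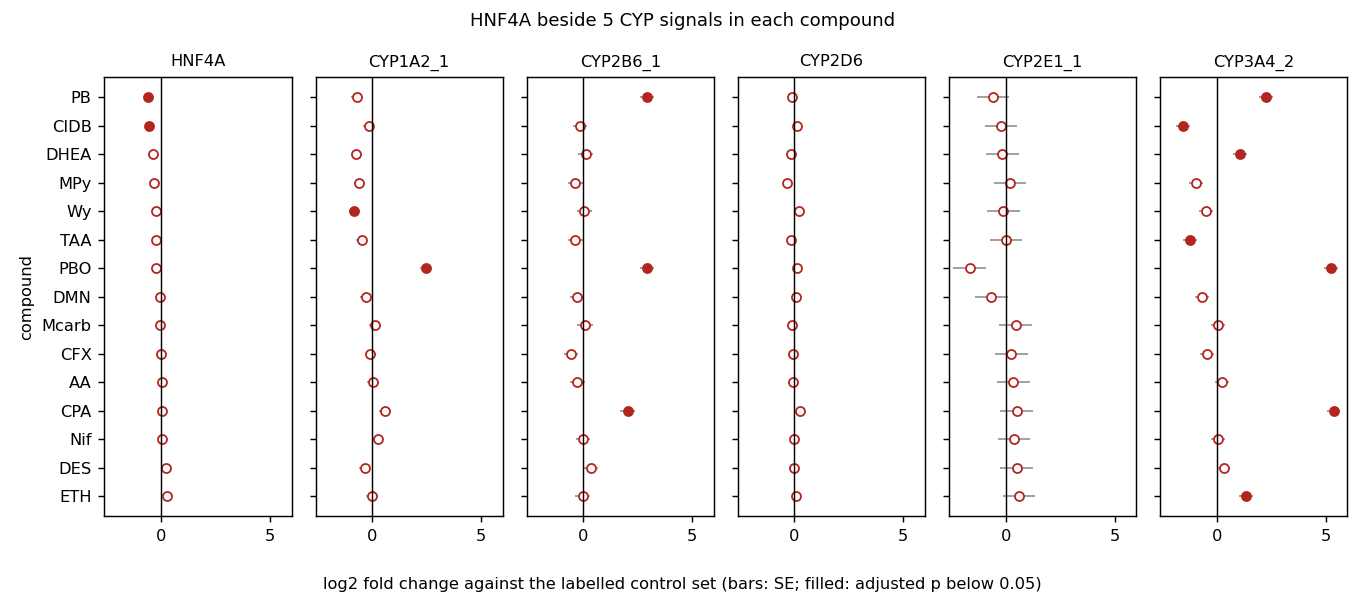
Log2 fold changes of HNF4A and 5 CYP signals against the labelled control set, with compounds in the order of their HNF4A estimate and the same axis in each panel; bars are SE and filled points passed an adjusted p below 0.05. HNF4A spans -0.59 to 0.30, while CYP3A4_2 spans -1.53 to 5.36 and does not follow the HNF4A order.

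Within groups, HNF4A varied together with most antibodies, CYPs included. Over deviations of the 63 animals from their group means, 153 of the 157 other analytes correlated positively with HNF4A (median rho 0.458), and 116 (73.9%) passed a permutation test within groups after Benjamini-Hochberg adjustment over all 157. Of the 15 CYPs, 8 passed, with a median rho of 0.458, so on this scale the CYPs stood no higher than the rest. In the authors' log2 ratios the median rho was 0.315 over all analytes and 0.423 over the CYPs. There 40.8% of analytes and 9 of the 15 CYPs passed, and the difference between CYPs and other analytes was not tested. Once each animal was centred, the median rho was 0.06 over all analytes and 0.12 over the CYPs, and 4 analytes (2.55%) passed, of which 1 was a CYP.

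That CYP was CYP2D6, named for a family that oxidises many basic drugs, and it was also the analyte most like HNF4A of all 157 before centring. Its rho with HNF4A was 0.741 and r was 0.764 (adjusted permutation p = 0.000196 for both). Centred, rho was 0.556 (adjusted permutation p = 0.0167) and r was 0.640 (0.0110), and r was 0.546 without the 2 farthest animals. In the authors' log2 ratios, where 40.8% of analytes passed, rho was 0.716 (adjusted permutation p = 0.000589). Among the 18 controls alone rho was 0.738 (unadjusted permutation p = 0.0161), lower than for CYP1A1_2 (0.839) and CYP2C8 (0.814). Centred, it was 0.496 (unadjusted permutation p = 0.0961), beside 0.337 for CYP1A1_2 and 0.395 for CYP2C8. CYP2D6 differed little between groups where HNF4A moved: its estimate was log2 0.11 in CIDB, where the livers read 10.3, 12.4 and 12.2 RFI against 8.86, 13.9 and 10.0, and -0.12 in PB.

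**Figure D4:**
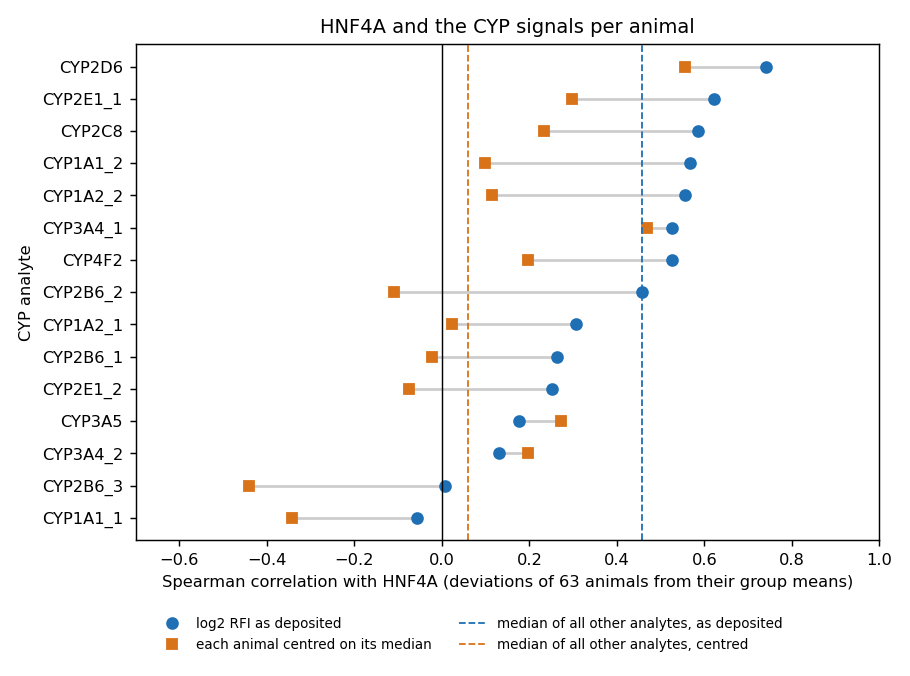
Spearman correlation of each of the 15 CYP signals with HNF4A over deviations of 63 animals from their group means, as deposited (blue circles) and with each animal centred on its median (orange squares); dashed lines mark the medians of all 157 other analytes, 0.458 and 0.06. CYP2D6 and CYP3A4_1 stay highest after centring, and CYP2B6_3 and CYP1A1_1 are lowest, at -0.440 and -0.342.

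The other CYPs varied in how far centring moved their correlation, and these differences between CYPs were not tested. CYP2E1_1 (rho 0.621), CYP2C8 (0.584), CYP1A1_2 (0.567), CYP1A2_2 (0.556), CYP3A4_1 and CYP4F2 (both 0.526) and CYP2B6_2 (0.458) passed uncentred and did not pass centred, where CYP3A4_1 kept the highest value (rho 0.468, adjusted permutation p = 0.0710). CYP3A4_2, the signal that differed most between compounds, had a rho of 0.130 uncentred and 0.198 centred within groups, neither of which passed, but 0.352 in the matrix of log2 ratios (adjusted permutation p = 0.0416). CYP3A5 (0.455, adjusted permutation p = 0.0130) and CYP1A2_1 (0.423, adjusted permutation p = 0.0260) passed there too, while CYP2C8 (0.355, adjusted permutation p = 0.0735) and CYP2E1_1 (0.339, adjusted permutation p = 0.0826) did not. CYP2B6_3 had a rho of 0.01 uncentred and -0.440 centred (adjusted permutation p = 0.0505), and CYP1A1_1 had -0.06 and -0.342 (0.202). Antibodies that share a symbol thus differed: CYP2B6_1 had 0.262 and CYP2B6_2 0.458 beside 0.01 for CYP2B6_3.

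Besides CYP2D6, the analytes most like HNF4A over the 63 animals were the cytokine receptor kinase JAK1 (rho 0.707), the transcription factor STAT5A (0.707), the liver-secreted enzyme paraoxonase PON1 (0.679) and histone H3 acetylated at lysine 18 (HIST1H3A_A-K18, 0.672). The least alike were CYP1A1_1 (-0.06), phosphorylated RPS6KA1 (RPS6KA1_P-T573, -0.04) and cyclin A2 (CCNA2, -0.04). The analytes that passed centred were chosen after their values were seen. They were POR, the reductase that passes electrons to CYP enzymes (rho 0.564, adjusted permutation p = 0.0110), CYP2D6, the kinase MAP3K7 (0.546, adjusted permutation p = 0.0167) and STAT5A (0.516, adjusted permutation p = 0.0377). In the authors' log2 ratios POR had a rho of 0.572 with HNF4A, but MAP3K7 had 0.244 and STAT5A 0.06. The 2 scales did not follow each other equally for these analytes. Within groups the matrix column of the same name followed RFI with a rho of 0.638 for POR, 0.470 for STAT5A and 0.179 for MAP3K7, and the MAP3K7 column ranked 22nd among the matrix columns in this.

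The other listed genes near HNF4A were 3 liver enzymes and secreted proteins (GLUL, IGFBP1 and UGT1A1), 4 nuclear receptor signals (3 for PPARA and 1 for RXRA, the partner receptor of PPARA) and 8 signals of kinases described as acting on HNF4A. No nuclear receptor signal was called in CIDB or PB against the labelled sets. In CIDB, GLUL, the glutamine synthetase of hepatocytes around the central vein, was lower by log2 -3.89 (SE 0.73, limma adjusted p = 0.000172). The phosphorylated MAPK3 signal, MAPK3_P-T202/Y204, was lower in CIDB by log2 -0.91 and in PB by -0.87, and PRKAA1, a subunit of the energy sensor AMPK, was lower in PB by -0.83. Centred, the PB kinase differences did not pass (adjusted p = 0.179 and 0.0621), as with HNF4A there, while GLUL and phosphorylated MAPK3 in CIDB did.

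Neither signal was particular to the compounds in which HNF4A was called. GLUL was also called lower in DES and Wy, uncentred and centred, with HNF4A estimates of 0.23 and -0.24. GLUL read at or below 0 and was missing from the fit in 1 Wy liver and in 2 TAA livers, so its TAA value rests on 1 liver and is not given. Phosphorylated MAPK3 was called lower in DHEA, ETH, PBO and Wy, with HNF4A at -0.36, 0.30, -0.23 and -0.24. Wy shares set 1 with DHEA, and DES shares set 5 with ETH and PBO, so these comparisons are not independent of each other.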

How the data were processed

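Liver lysates of 63 rats (45 treated, 18 controls) were measured on reverse-phase protein arrays. The authors deposited, per animal, an intensity (RFI) of 158 analytes. Per the study's methods, spots were corrected for local background, normalised over the array and averaged. Which of these steps the deposited RFI includes was not established. The authors also deposited a matrix of log2 values, described in the methods as ratios to the control median. The RFI did not reproduce it: PB animal 1, at 1.44 RFI, lay below its controls at 2.93, 2.09 and 2.30, while its matrix value was 0.11. This mismatch was not explained. The HNF4A values of the matrix followed RFI with rho 0.458 within groups, higher than any other matrix name, and served as an alternative. All columns were mapped to samples. The labels say methylcellulose where the methods name carboxymethyl cellulose for some compounds.

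RFI was log2 transformed, and the 25 values at or below 0, none of HNF4A, were set to missing. limma 3.58.1 (R 4.3.3) was fitted to all animals, with 21 group means, or 17 with controls merged by vehicle. Two-sided p-values were corrected over the 158 analytes after Benjamini and Hochberg, with a call at 0.05. The code was tested on simulated data. Correlations used deviations from group means, shuffled within groups (scipy 1.17.1, 100000 resamples). They were adjusted over all 157 other analytes instead of the planned CYP pairs. The planned comparison between HNF4A antibodies could not be made, as 1 carries the name.

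Same-numbered animals of CPA and its control set deviated together over analytes (r 0.307, 0.219 and 0.159) and were treated as pairs in a blocked fit; those of PB did not (0.03, 0.01 and 0.07). Nothing names separate experiments behind the animals of a group, and their number limits the precision. No duplicated animals were found: animals differed by a median absolute log2 of at least 0.145 within a group and 0.098 between groups. Analytes named are HNF4A, all CYPs, the 5 most and 3 least correlated with HNF4A, and called members of the gene lists. HNF4A and the lists were chosen with earlier results of these data known. Alternatives were centring, the matrix, a prior trend with robust fit, a pseudocount of 0.1, removal of the dimmest analytes (quantile 0.2), the 6 animals of a comparison alone, replicate blocks and leaving out each animal; blocks and leave-outs of centred values were added after seeing the data.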

Additional observations from a re-analysis of the deposited data

How the results depend on the processing

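Of the compounds called against the labelled sets, CIDB kept its call with centring, the matrix (log2 -0.74, adjusted p = 0.00405), the pseudocount, the robust prior and without dim analytes, and lost it with its 6 animals alone. The count of 2 was 1 with centring and 1 with the matrix, and 1 to 2 on leaving out an animal. Against vehicle controls the count of 1 was 2 with centring (CIDB and PBO, the latter not without PBO animal 3), 2 with the matrix, 2 with the control sets averaged in the 21-group fit, 0 with the robust prior (5 compounds had an unadjusted p below 0.05 in the limma fit without it), and 0 to 3 on leaving out an animal. PB kept its call with the pseudocount (limma adjusted p = 0.0259), the robust prior (0.0414) and without dim analytes (0.0327). The PB call was lost with centring (-0.18), in the matrix (-0.08) and with its 6 animals alone (adjusted p = 0.320). Of the 15 CYPs, 8 passed uncentred, 1 centred and 9 in the matrix, where the shares over all analytes were 73.9%, 2.55% and 40.8%.

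The replicate block, which pairs same-numbered animals, left both values and calls (PB log2 -0.59, adjusted p = 0.0390; CPA 0.04, adjusted p = 0.886). With the block and centring they were -0.18 (adjusted p = 0.428) and -0.18 (adjusted p = 0.656).

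The signs that turned belonged to values not called, except CYP2B6_2. Against the labelled sets these were CPA (-0.18 centred, -0.10 in the matrix), Mcarb (0.019 centred, 0.12 in the matrix), Nif (-0.028 centred) and TAA (0.020 centred). Against vehicle controls they were Mcarb (0.0064 centred, 0.074 in the matrix) and TAA (0.0070 centred). The vehicle difference was 0.010 centred, and NGC minus genotoxic carcinogens was -0.0054 against vehicle controls. For CYP correlations they were CYP1A1_1 (0.152 in the matrix) and, centred, CYP2B6_1 (-0.023), CYP2B6_2 (-0.110), CYP2B6_3 (-0.440) and CYP2E1_2 (-0.075). The cause was not tested.

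Leaving out an animal turned the sign of estimates near 0, and without animal 3 that of PBO against its set (log2 -0.23). Against labelled sets the ranges were -0.024 to 0.082 for AA, -0.085 to 0.091 for CFX, -0.052 to 0.14 for CPA, -0.14 to 0.074 for DMN, -0.11 to 0.050 for Mcarb, -0.084 to 0.15 for Nif and -0.40 to 0.066 for PBO. Against vehicle controls they were -0.019 to 0.050 for AA, -0.077 to 0.099 for CFX, -0.15 to 0.016 for CPA, -0.0058 to 0.15 for DES, -0.0096 to 0.20 for DMN, -0.14 to 0.020 for Mcarb and -0.076 to 0.16 for Nif. Leaving out a group moved rho for CYP2B6_3 between -0.051 and 0.069 and for CYP1A1_1 between -0.129 and 0.010.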
